A study of Mus musculus with 10 samples.

Results

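Collagen genes were examined in bulk RNA-seq of the mandibular prominence (MNP), the embryonic tissue that forms the lower jaw, of CD1 mice at E10.5. The members were all gene symbols made of Col, a number, the letter a and a number, which gave 44 of the 33641 symbols in the files. By structure these were 11 fibrillar, 9 basement membrane, 9 FACIT (fibril-associated with interrupted triple helices), 6 beaded filament, 3 short-chain network and 4 transmembrane collagens, and 2 others (Col26a1 and Col28a1). Wild-type (WT) embryos were compared with Hand2 f/f;Wnt1-Cre embryos (Hand2 cKO) and with embryos that joined Wnt1-Cre to floxed alleles of both Gli2 (Gli2 f/f) and Gli3 (Gli3 f/f), called Gli2/3 cKO, to ask which genes depend on these transcription factors in the developing jaw. Wnt1-Cre acts in neural crest cells, so the epithelium, the mesodermal core, vessels and blood of the mutant MNP keep the floxed alleles, and the labels call the controls only wild-type. For Hand2 cKO litters at later stages the study treated the dams with adrenergic agonists, and whether the E10.5 litters were treated is not stated. The libraries with values were WT 3 and WT 4, Hand2 cKO 1, 2 and 3, and Gli2/3 cKO 3, which has no replicate. The other 4 of the 10 labelled samples are not analysed here.

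Collagens are secreted or membrane proteins in which 3 chains wind into a triple helix, a fold that needs glycine as the first residue of each repeating triplet. Fibrillar collagens (types I, II, III, V, XI, XXIV and XXVII) form the ropes of connective tissue and cartilage, type IV forms the sheet of basement membranes, type VI forms beaded microfibrils, and FACITs such as type IX sit on the surface of fibrils. In the face, neural crest mesenchyme gives rise to the cells that later lay down Meckel's cartilage, rich in types II, IX and XI, and the type I matrix of bone. Many types are heterotrimers, so the ratio of chain transcripts is of interest beside their level.

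The repeat is visible in single exons, and 1 exon is printed for each of the 5 genes on which the comparisons below turn or that stand for a class. Each begins in the triplet repeat, runs 5′ to 3′ on the coding strand of GRCm38 (mm10) and lies within the coding sequence. Capitals mark the glycine codon that opens each triplet, and other glycine codons, as in the last triplet of Col6a3, are in lower case.
Col1a1, chr11:94939697-94939741, plus strand, exon 7: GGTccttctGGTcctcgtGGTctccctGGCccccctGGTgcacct
Col2a1, chr15:97998545-97998598, minus strand, exon 6: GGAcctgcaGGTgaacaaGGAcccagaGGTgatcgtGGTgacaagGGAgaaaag
Col4a1, chr8:11247006-11247095, minus strand, exon 3: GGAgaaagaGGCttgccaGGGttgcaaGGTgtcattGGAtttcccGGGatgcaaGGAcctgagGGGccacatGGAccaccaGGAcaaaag
Col6a3, chr1:90795915-90795968, minus strand, exon 13: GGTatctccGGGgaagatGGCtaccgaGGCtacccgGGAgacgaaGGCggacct
Col9a2, chr4:121042416-121042478, plus strand, exon 4: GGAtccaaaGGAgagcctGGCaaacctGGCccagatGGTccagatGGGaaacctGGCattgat
The longest uninterrupted run of triplets in the most abundant coding transcript was 338 in Col1a1, 339 in Col2a1 and 344 in Col3a1, but 216 in Col24a1 and 217 in Col27a1. All 3 type IX chains had a longest run of 113 triplets. Col4a1 had 22 separate runs, the longest of 40 triplets, and Col26a1, in spite of its name, had 2 runs, the longest of 23.

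Depth was 21420197 to 53326697 counts a library. Collagen genes took 0.471% and 0.393% of all counts in WT, 0.437%, 0.340% and 0.460% in Hand2 cKO 1, 2 and 3, and 0.347% in Gli2/3 cKO. The deleted genes were read first. Hand2 was at 175 and 209 CPM (counts scaled to a common library size) in WT, 13.4, 25.4 and 15.6 in Hand2 cKO, and 144 in Gli2/3 cKO. Gli2 was at 122 and 105 CPM in the WT libraries, 119, 80.2 and 122 in Hand2 cKO, and 58.3 in Gli2/3 cKO. Gli3 was at 176 and 145 CPM in the WT libraries, 195, 114 and 137 in Hand2 cKO, and 80.2 in Gli2/3 cKO. Every mutant library was thus below both WT libraries for its own deleted genes. Hand2 cKO 2 stood apart in that its values fell with transcript length, with a slope of -0.38 on the log2 scale per doubling of length against 0.01 to 0.15 in the other libraries. This matters for collagens, because 41 of the 43 tested were longer than the median gene tested (median weighted length 5647 against 2676 bases). Among the 31 collagen genes at 5 CPM or more, 24 were lower in Hand2 cKO 2 than in the mean of Hand2 cKO 1 and 3. The median log2 ratio was 0.29 for the 5 genes under 4000 bases and -0.56 for the 12 genes of 6000 bases or more. The counts of collagen genes at an unadjusted p below 0.05 are given with and without it.

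**Figure D1:**
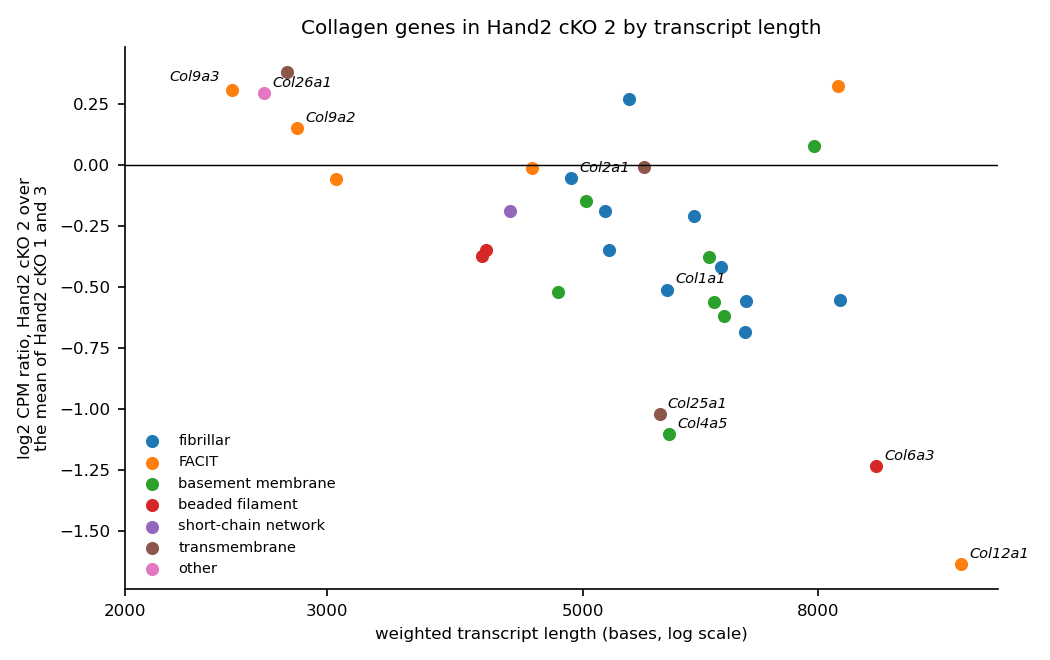
Log2 ratio of CPM in Hand2 cKO 2 over the mean of Hand2 cKO 1 and 3 (y axis) against weighted transcript length in bases (x axis, log scale), 1 point for each of the 31 collagen genes at 5 CPM or more, coloured by structural class. Short genes such as Col9a3 lie above 0 and long ones such as Col6a3 (-1.23) and Col12a1 (-1.64) lie lowest.

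Levels between genes were compared as TPM, which divides the counts by transcript length before scaling. In WT, 7 collagen genes were at 100 TPM or more, 14 between 10 and 100, 12 between 1 and 10, and 11 under 1. Col3a1, the type III chain of soft connective tissue, was at 383 and 289 TPM, and Col2a1, the main cartilage collagen, at 356 and 254 TPM in WT 3 and WT 4. Col3a1 was the higher of these in both WT libraries, but their ranges overlap and 2 libraries are few to fix an order. Col26a1 (194 and 167 TPM), Col18a1 (196 and 162 TPM), the source of endostatin, Col4a1 (174 and 151 TPM), Col9a1 (160 and 141 TPM) and Col1a2 (172 and 113 TPM) followed, and each overlapped its neighbour in that order. Together these 7 genes held 75.4% of the mean collagen TPM in WT, and fibrillar collagens alone held 50.9% and 48.7%. Col4a2 came next at 98.4 and 71.1 TPM, below the whole range of the 7.

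The highest transmembrane gene was Col23a1 at 50.7 and 31.4 TPM, and the highest beaded filament gene was Col6a2 at 11.9 and 9.34 TPM. Col8a2, the highest short-chain gene, was at 22.4 TPM in WT 3 and 3.61 in WT 4, a spread that takes in the Gli2/3 cKO value of 9.01 TPM. Genes of more mature or specialised matrices were scarce. Col10a1, the collagen of hypertrophic cartilage, had 0 and 4 counts in WT, 2, 0 and 1 in Hand2 cKO and 3 in Gli2/3 cKO, and was the only member not tested. Col4a3 and Col4a4, chains of the mature kidney basement membrane, and Col6a4, Col6a5, Col6a6, Col8a1, Col28a1, Col5a3, Col19a1 and Col14a1 were all under 1 TPM in WT. Acan, the large cartilage proteoglycan, was at 0.896 and 0.442 CPM in the WT libraries and 0.230 CPM in the Gli2/3 cKO library, whereas Vcan, the proteoglycan of loose mesenchyme, was at 515 and 484 CPM in the WT libraries.

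**Figure D2:**
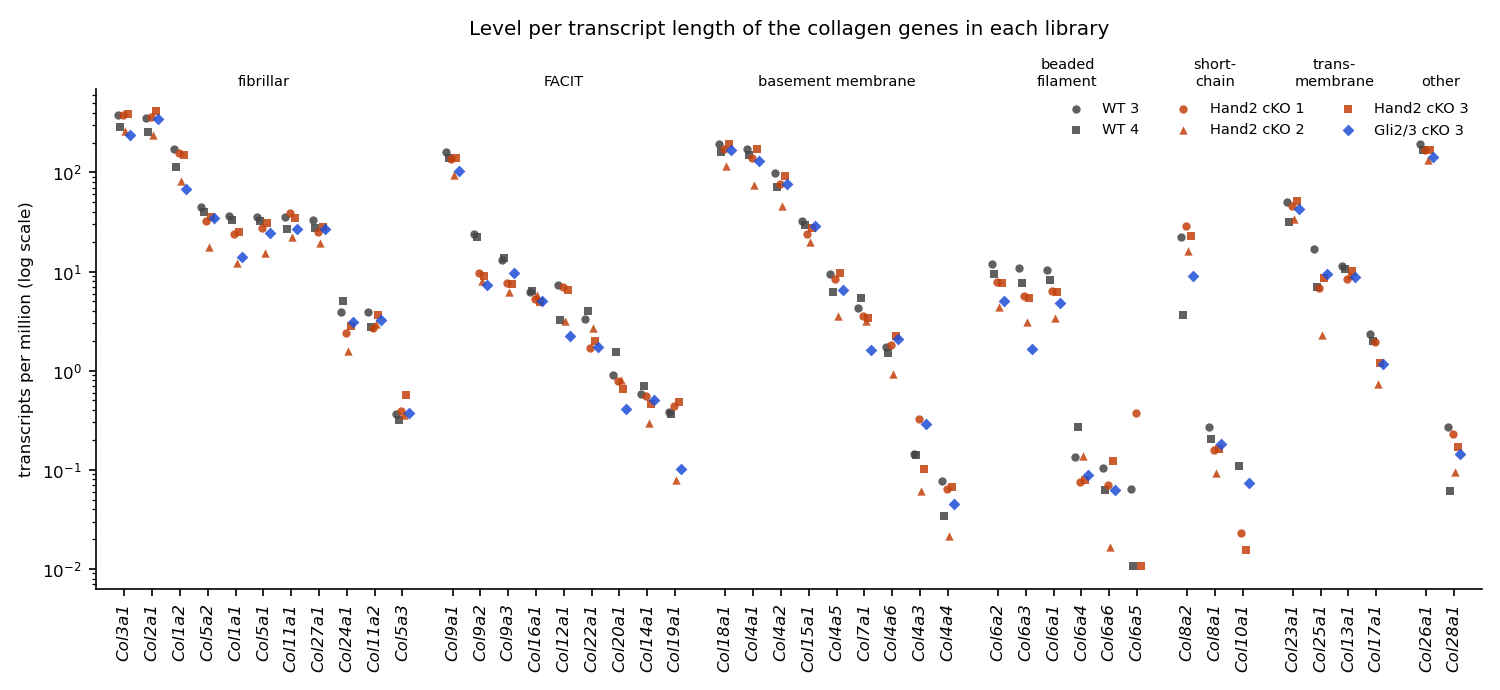
TPM (y axis, log scale) of the 44 collagen genes in the 6 libraries, grouped by structural class and ordered by mean WT level, with 1 symbol for each library (values of 0 are not drawn). Levels span from above 300 TPM for Col3a1 to below 0.1 TPM for Col4a4, and Hand2 cKO 2 (triangles) is often the lowest Hand2 cKO library.

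In Hand2 cKO against WT, the type IX chains, the abundant type VI chains and Col1a1 had lower CPM in every Hand2 cKO library than in either WT library. Col2a1 had higher CPM in every one. As TPM, Col9a1 and Col2a1 overlapped WT, with Col2a1 at 365, 238 and 413 TPM in Hand2 cKO against 356 and 254 in WT. No collagen gene passed the test of the fit across all genes (edgeR quasi-likelihood, adjusted p below 0.05 and fold above 1.5). It called 0.0114% of the 17477 genes tested. The deleted gene Hand2, at a log2 fold change of -3.4, was not called either, nor were Gli2 and Gli3 in Gli2/3 cKO. The lack of a call therefore does not show that a gene was unchanged. At an unadjusted p below 0.05, 8 of 43 collagen genes were lower, where 4.02% of all genes were, and 0 were higher, where 2.44% of all genes were. DESeq2 called 1 collagen gene, Col9a2, and 1.04% of all genes. All Hand2 cKO libraries lay below both WT libraries for 17 of 43 collagen genes (15.7% of all genes) and above them for 4 (15.3% of all genes). The log2 fold change was negative for 30 of 43 (50.0% of all genes), with a median of -0.15 against -0.00012 for all genes. That median and those counts moved with the libraries: the median was -0.01 without WT 3 and 0.04, in the other direction, once the trend with length was removed.

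Col9a2, a chain of the type IX collagen that coats cartilage fibrils (chr4:121039385-121055322, plus strand), had the smallest p among the members. It was at 29.9 and 28.5 CPM in the WT libraries, at 13.1, 14.3 and 12.6 CPM in the Hand2 cKO libraries, and at 9.22 CPM in the Gli2/3 cKO library. The Hand2 cKO libraries lay far below WT and close to each other, including the length-biased one. The log2 fold change was -1.13 ± 0.15 (SE), with an edgeR adjusted p of 0.138. Over the alternatives the estimate ran from -1.20 to -1.09 and the adjusted p from 1.04e-06 in DESeq2 to 0.953. Without Hand2 cKO 2, edgeR called it (log2 fold change -1.20, adjusted p = 0.0482).

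Col9a3, its partner chain, was at 12.4 CPM in both WT libraries and at 7.32, 9.06 and 7.27 CPM in the Hand2 cKO libraries. The log2 fold change was -0.66 ± 0.19 (SE), with an edgeR adjusted p of 0.722. The loci of Col9a3 and of Tcfl5, on the other strand, overlap by 234 bases, and the use of strand in counting is not stated. Col9a1, the third chain, was at 232 and 220 CPM in the WT libraries and at 217, 207 and 214 CPM in the Hand2 cKO libraries. Its Hand2 cKO libraries were just below WT, with a log2 fold change of -0.09 ± 0.14 (SE).

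The 3 abundant type VI chains, which form microfibrils around cells, had similar profiles. Col6a1 was at 20.1 and 17.2 CPM in the WT libraries and at 13.5, 10.1 and 12.7 CPM in the Hand2 cKO libraries, a log2 fold change of -0.62 ± 0.20 (SE). Col6a2 was at 23.0 and 20.0 CPM in the WT libraries and at 16.7, 12.7 and 15.7 CPM in the Hand2 cKO libraries, a log2 fold change of -0.52 ± 0.19 (SE). Col6a3 was at 35.9 and 28.3 CPM in the WT libraries and at 19.5, 7.55 and 16.3 CPM in the Hand2 cKO libraries, a log2 fold change of -1.15 ± 0.39 (SE). The lowest value of Col6a3 is that of Hand2 cKO 2, in which this long gene was at 0.422 of the mean of the other Hand2 cKO libraries, and without that library the log2 fold change was -0.86. The edgeR adjusted p was 0.723 for each of the 3 chains.

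Among the fibrillar genes, Col1a1, the major chain of type I collagen, was at 103 and 94.5 CPM in the WT libraries and at 73.7, 52.0 and 74.5 CPM in the Hand2 cKO libraries. Its log2 fold change was -0.56 ± 0.20 (SE), with an edgeR adjusted p of 0.723. Col1a2, the other type I chain, was at 405 and 289 CPM in the WT libraries and 413, 311 and 379 CPM in the Hand2 cKO libraries, and these ranges overlap. Col24a1, a fibrillar chain with a shorter helix, was at 11.8 and 14.3 CPM in the WT libraries and at 7.62, 5.25 and 7.95 CPM in the Hand2 cKO libraries, a log2 fold change of -0.91 ± 0.24 (SE). Col2a1 was at 670 and 532 CPM in the WT libraries and at 783, 773 and 822 CPM in the Hand2 cKO libraries. Its log2 fold change was 0.40 ± 0.17 (SE) with an edgeR adjusted p of 0.723, and its estimate stayed between 0.24 and 0.58 over the alternatives.

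Of the other classes, the FACIT gene Col22a1 was at 9.76 and 11.5 CPM in the WT libraries and at 5.98, 7.31 and 5.68 CPM in the Hand2 cKO libraries, a log2 fold change of -0.75 ± 0.21 (SE). It was -0.34 once the trend with length was removed. Basement membrane collagens sat nearer to 0, with a median log2 fold change of -0.04 and 0 of 9 at an unadjusted p below 0.05. Col18a1 was at 445 and 394 CPM in the WT libraries and 443, 410 and 465 CPM in the Hand2 cKO libraries, a log2 fold change of 0.07 ± 0.16 (SE) whose direction changed without WT 4. Col26a1, at 213 and 190 CPM in the WT libraries and 212, 252 and 199 CPM in the Hand2 cKO libraries, and Col23a1, at 132 and 88.1 CPM in the WT libraries and 134, 138 and 144 CPM in the Hand2 cKO libraries, had log2 fold changes of 0.13 ± 0.17 and 0.33 ± 0.21 (SE). Leaving out 1 library at a time gave 3 collagen genes lower at an unadjusted p below 0.05 without WT 3 (4.58% of all genes), 3 without WT 4 (1.57%), 7 without Hand2 cKO 1 (2.3%) and 8 without Hand2 cKO 3 (4.17%). Without Hand2 cKO 2 there were 10 lower (5.48% of all genes) and 1 higher (4.26%), and with the length trend removed there were 9 lower (5.46%) and 5 higher (7.62%).

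**Figure D3:**
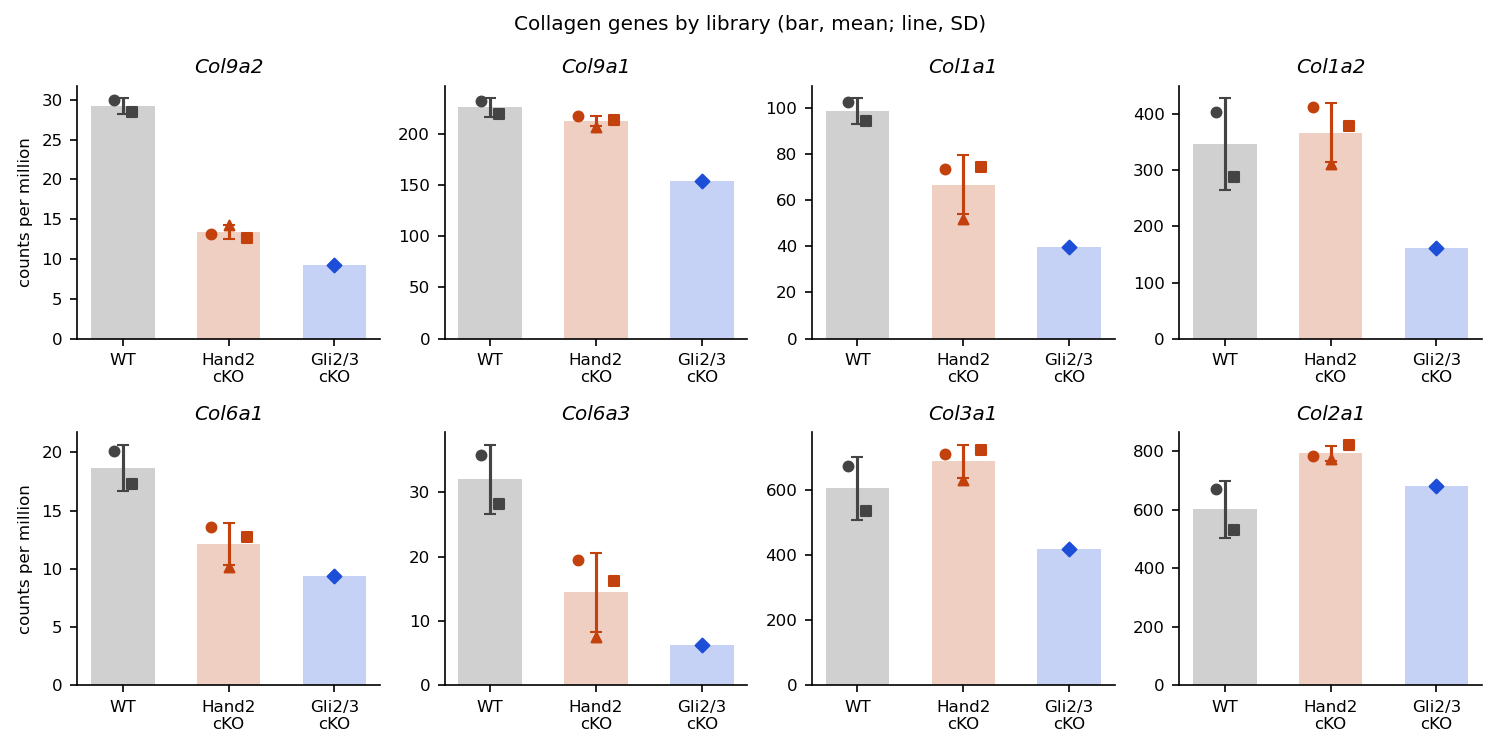
CPM (y axis, from 0) of 8 collagen genes in WT, Hand2 cKO and Gli2/3 cKO; points are libraries, bars group means and lines the SD (WT n = 2, Hand2 cKO n = 3, Gli2/3 cKO 1 library without error). Col9a2 stands at 29.2 CPM in the WT libraries, 13.3 in Hand2 cKO and 9.22 in Gli2/3 cKO, whereas Col2a1 is highest in Hand2 cKO at 793 CPM.

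In Gli2/3 cKO against WT, type I and type VI chains and Col9a2 were lower, with estimates below those in Hand2 cKO, and Col2a1 was near WT. The value rests on 1 Gli2/3 cKO library, which the fit assumes to vary like the other groups, and uses the same WT libraries as above. No collagen gene was called by edgeR (0.0114% of all genes were). At an unadjusted p below 0.05, 11 of 43 collagen genes were lower (2.96% of all genes) and 0 were higher (1.63% of all genes). The Gli2/3 cKO library lay below both WT libraries for 30 of 43 (33.7% of all genes), and the log2 fold change was negative for 37 of 43 (49.7% of all genes), with a median of -0.39 against 0.0012 for all genes. DESeq2 called 3 collagen genes, Col1a1, Col6a3 and Col9a2, and 0.727% of all genes. With Hand2 cKO 2 left out of the shared fit the number lower was 17 (6.56% of all genes), and with the length trend removed it was 12 (5.27% of all genes). It was 7 without WT 3 (3.31% of all genes) and 7 without WT 4 (2.01%).

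Col9a2 was at 31.6% of its WT mean, a log2 fold change of -1.66 ± 0.23 (SE) with an edgeR adjusted p of 0.281 and 2.19e-07 to 0.668 over the alternatives. Col1a1 was at 39.8 CPM, 40.3% of its WT mean, a log2 fold change of -1.31 ± 0.29 (SE) with an edgeR adjusted p of 0.625 and 0.00878 to 1.00 over the alternatives. Col1a2 was at 161 CPM, 46.5% of its WT mean, a log2 fold change of -1.11 ± 0.31 (SE). As CPM, both type I chains of Gli2/3 cKO lay below all 5 other libraries. As TPM, Col1a1 was at 13.9 in Gli2/3 cKO and at 12.1 in Hand2 cKO 2. Col3a1 was at 419 CPM against 673 and 535 CPM in the WT libraries, a log2 fold change of -0.53 ± 0.24 (SE). Col2a1 was at 680 CPM, above both WT libraries by little, a log2 fold change of 0.18 ± 0.23 (SE) with a 95% interval that includes 0.

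Col6a3, the largest of the abundant type VI chains, had the lowest share of WT among members above 5 CPM in the WT libraries. It was at 6.16 CPM, 19.2% of its WT mean, a log2 fold change of -2.38 ± 0.61 (SE) with an edgeR adjusted p of 0.779 and 0.00508 to 1.00 over the alternatives. Col6a1 was at 9.34 CPM and Col6a2 at 10.4 CPM, log2 fold changes of -1.0 ± 0.28 and -1.05 ± 0.27 (SE). Of the FACIT genes, Col9a1 was at 154 CPM (log2 fold change -0.55 ± 0.19, SE), Col9a3 at 9.26 CPM (-0.42 ± 0.26), Col22a1 at 6.12 CPM (-0.80 ± 0.29) and Col16a1 at 7.39 CPM against 11.9 and 10.7 in WT (-0.62 ± 0.23). Counted on protein-coding transcripts alone, Col16a1 was not lower, with a log2 fold change of 0.31. Col17a1, the transmembrane collagen of epithelial anchoring junctions, and Col20a1, a FACIT, named after their values were seen, completed the 11 at 2.10 and 0.918 CPM (log2 fold changes of -1.32 ± 0.50 and -1.22 ± 0.41, SE). Basement membrane collagens had a median of -0.17, with 0 of 9 at an unadjusted p below 0.05.

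**Figure D4:**
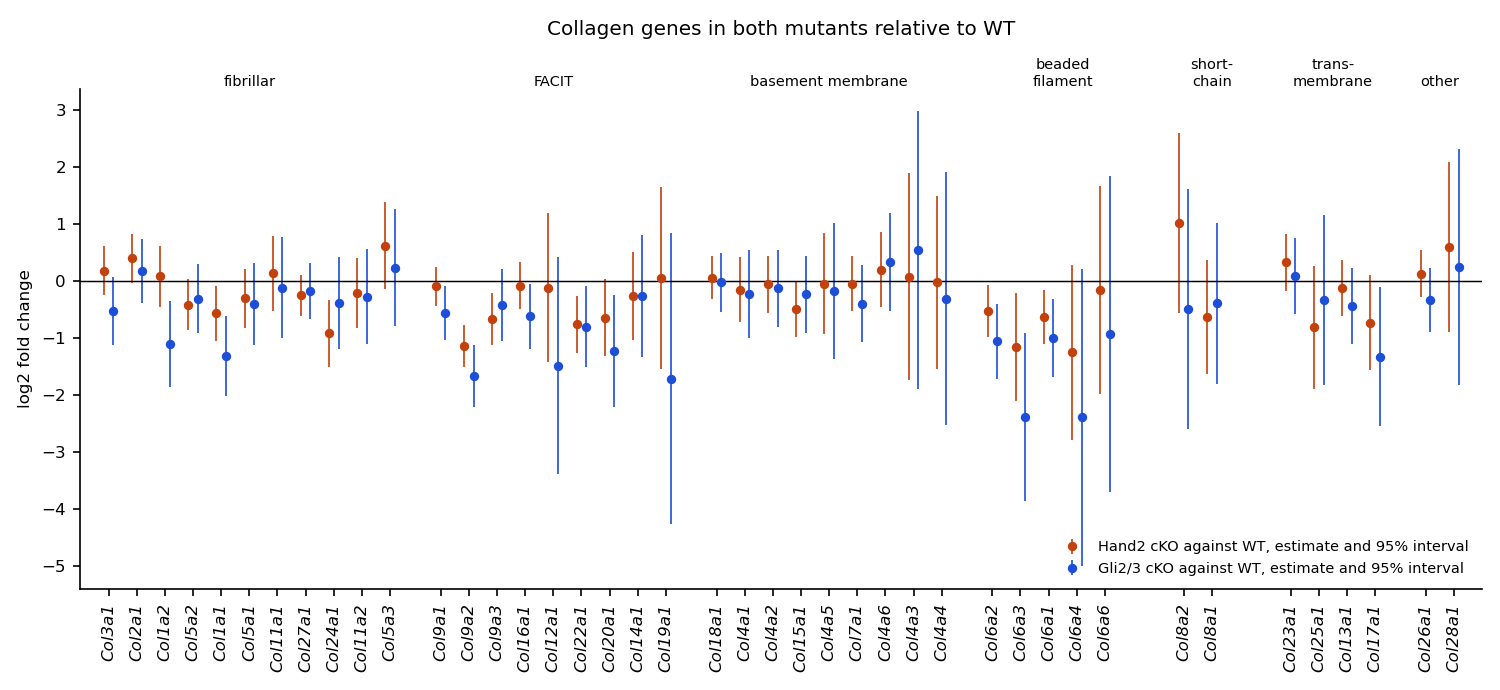
Log2 fold change (y axis) of the collagen genes in Hand2 cKO and in Gli2/3 cKO against the same WT libraries, with points for estimates and lines for 95% intervals from the edgeR fit; Col10a1 was not tested and Col6a5, with 0 counts in 2 libraries, is not drawn. Col9a2 is at -1.13 and -1.66, both intervals being below 0, while most basement membrane genes lie near 0.

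The direct comparison of Gli2/3 cKO with Hand2 cKO gave no collagen gene called by edgeR (0.0343% of all genes), 6 of 43 lower at an unadjusted p below 0.05 (2.63% of all genes) and 0 higher (2.86% of all genes). The number lower was 13 without Hand2 cKO 2 (4.44% of all genes) and 13 with the length trend removed (5.15%). It was 1 without Hand2 cKO 1 (1.57%), 1 without Hand2 cKO 3 (2.41%), 3 without WT 3 (2.41%) and 3 without WT 4 (2.39%), so that count rests on single libraries. The log2 fold change was negative for 34 of 43 (51.7% of all genes), with a median of -0.32 against -0.02 for all genes. Col1a2 had the smallest p, with a log2 fold change of -1.19 ± 0.30 (SE), an edgeR adjusted p of 0.654 and 0.0127 to 0.961 over the alternatives. It was the 1 collagen gene that DESeq2 called (0.83% of all genes). Col3a1, Col1a1, Col9a2, Col16a1 and Col9a1 had log2 fold changes of -0.72 ± 0.24, -0.75 ± 0.27, -0.53 ± 0.20, -0.54 ± 0.22 and -0.46 ± 0.18 (SE). No type VI chain was among the 6 genes lower, and the median of the 6 beaded filament genes was -0.96. Col6a3 was at 6.16 CPM in Gli2/3 cKO, close to the 7.55 CPM of Hand2 cKO 2. As CPM, type I and type III transcripts were lower in the Gli2/3 cKO library than in any Hand2 cKO library, without passing the adjusted threshold of edgeR. As TPM, Col1a1 overlapped Hand2 cKO.

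Ratios of chains that assemble together were computed from TPM within each library, with no test. Col9a1 stood over Col9a2 by a factor of 6.67 and 6.28 in WT, of 14.3, 11.8 and 15.5 in Hand2 cKO, and of 14.1 in Gli2/3 cKO, so no mutant library reached the WT range. Col9a3 to Col9a2 was 0.545 and 0.607 in WT, 0.807, 0.778 and 0.817 in Hand2 cKO, and 1.33 in Gli2/3 cKO. Within type IX, Col9a2 was thus the chain with the lowest share of WT in both mutants. Col1a1 to Col1a2 was 0.214 and 0.292 in WT, 0.155, 0.146 and 0.168 in Hand2 cKO, and 0.207 in Gli2/3 cKO. Although type I protein holds more of the Col1a1 chain, the Col1a2 transcript was the higher in all 6 libraries. Col6a1 to Col6a2 ranged from 0.783 to 0.976 over all libraries. Col6a3 to Col6a1 was 1.06 and 0.944 in WT, 0.885, 0.911 and 0.869 in Hand2 cKO, and 0.341 in Gli2/3 cKO. Col4a1 and Col4a2, whose start sites face away from each other and whose loci overlap by 22 bases, had ratios from 1.64 to 2.12 over the 6 libraries. Col5a1 to Col5a2 ranged from 0.704 to 0.864.

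**Figure D5:**
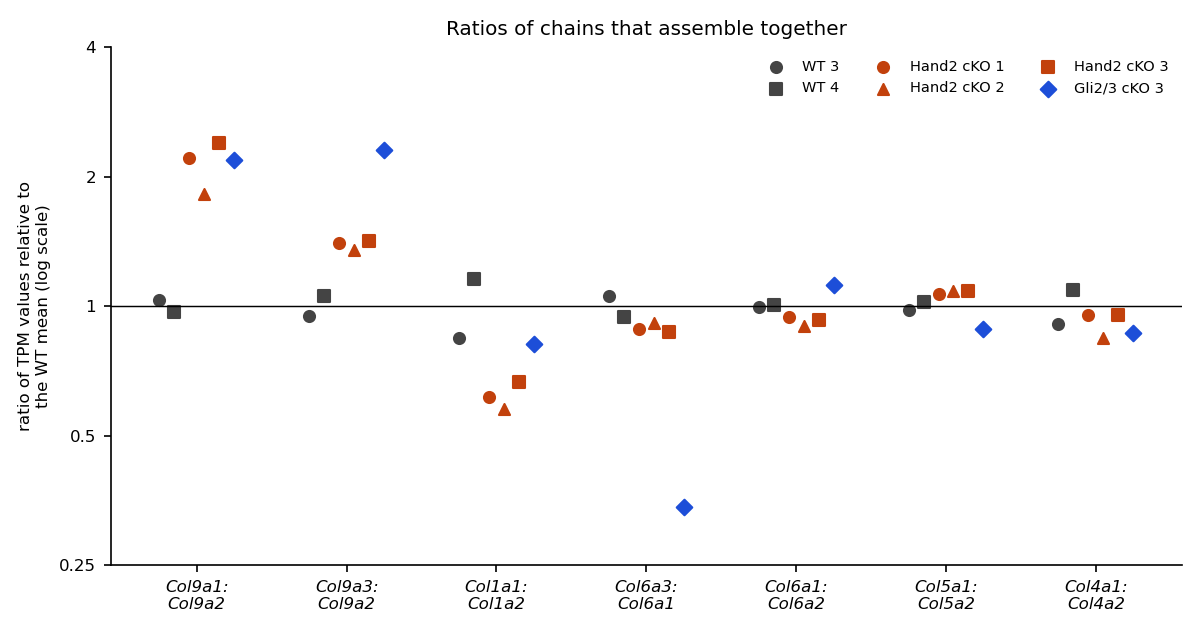
Ratio of TPM values of 7 pairs of chains in each library, divided by the WT mean of that ratio (y axis, log scale; the line marks 1), with 1 symbol for each library. Col9a1 to Col9a2 lies well above the line in all 4 mutant libraries (ratios of 11.8 or more against 6.28 and 6.67 in WT), Col6a3 to Col6a1 is lowest in Gli2/3 cKO, and Col6a1 to Col6a2 stays near 1.

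Transcript estimates separated forms of 2 cartilage collagens. Exon 2 of Col2a1 encodes the cysteine-rich domain that marks the procollagen of early, not yet chondrocytic cells (type IIA), and it is skipped in mature cartilage. It is 204 bases long (chr15:98000403-98000606, minus strand, GRCm38) and is shown because it tells the forms apart.
Col2a1 exon 2: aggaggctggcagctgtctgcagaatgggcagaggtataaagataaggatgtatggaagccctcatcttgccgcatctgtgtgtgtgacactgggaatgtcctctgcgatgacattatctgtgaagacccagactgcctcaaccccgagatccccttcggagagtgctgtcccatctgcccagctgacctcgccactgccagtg
The long transcript, which holds it, made up 83.8% and 76.4% of the sum of the long and short full transcripts in WT. It made up 84.8%, 49.3% and 88.4% in Hand2 cKO 1, 2 and 3, and 67.1% in Gli2/3 cKO. The exon 2 form was the main one in every library but Hand2 cKO 2, the library whose values fell with transcript length. That library also had larger shares in a short transcript of other collagen genes. These were Col11a1 (2570 bases, 35.3% against 8.4% to 14.3% elsewhere), Col12a1 (1784 bases, 32.6% against 1.5% to 8.7%) and Col15a1 (1755 bases, 40.9% against 0% to 7.5%). Its Col2a1 share is therefore not read as a difference of genotype, and the cause was not tested. The depth behind each share was 11554 to 39777 counts, but the shares are estimates that divide reads common to both forms.

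Col9a1 has 2 promoters, of which the upstream one gives the long chain of cartilage. Its full-length transcript (3834 bases, 38 exons, start at chr1:24177610) took 0.0713% to 0.569% of the gene's counts. The short transcript (3059 bases, 32 exons, start at chr1:24195187), the form known from the eye, took 98.6% to 99.6% in all 6 libraries. The 234 bases before that start, from RefSeq's promoter on GRCm38.p6 (chr1:24194953-24195186, plus strand), are shown because nearly all Col9a1 counts come from the transcript behind it; capitals mark its only CANNTG, the letters of the E-box that basic helix-loop-helix factors such as Hand2 bind.
Col9a1 downstream promoter: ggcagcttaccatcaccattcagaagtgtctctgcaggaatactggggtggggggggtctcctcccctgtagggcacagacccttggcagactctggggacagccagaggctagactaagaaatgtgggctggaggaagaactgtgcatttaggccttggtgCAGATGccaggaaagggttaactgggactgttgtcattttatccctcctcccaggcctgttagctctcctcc
Its first base lies 72 bases before the start, and the upstream window of 250 bases held none. CANNTG, searched on both strands, was present in 50.0% of the 38 collagen promoters (35 genes) and in 66.2% of all 32851 promoters of that length in RefSeq. GACCACCCA, the letters of a Gli site, was in 0 of the 38 and in 0.225% of all promoters. CATCTG was in 7.89% against 14.4%, and overlaps CANNTG by definition, and TATAAA was in 13.2% against 12.4%. Matches are descriptions of these letters, not sites.

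Genes that make, cut, bind and cross-link collagen were read from lists. None was called by edgeR in any of the 6 lists or comparisons. The counts below are at an unadjusted p below 0.05, a level at which 4.02% of all genes were lower and 2.44% higher in Hand2 cKO, and 2.96% lower and 1.63% higher in Gli2/3 cKO. Of 26 genes for synthesis and folding, 2 were lower in Hand2 cKO and 3 in Gli2/3 cKO, and 0 were higher in either. P3h2, a prolyl 3-hydroxylase active on type IV collagen, was at 17.3 and 18.6 CPM in the WT libraries, 9.76, 7.84 and 10.9 CPM in the Hand2 cKO libraries and 9.11 CPM in the Gli2/3 cKO library. DESeq2 called it in Hand2 cKO (log2 fold change by edgeR -0.92 ± 0.20, SE). P4ha2, a prolyl 4-hydroxylase subunit, had log2 fold changes of -0.60 ± 0.17 and -0.62 ± 0.24 (SE), and Sparc, a collagen-binding matricellular protein, -0.72 ± 0.23 (SE) in Gli2/3 cKO.

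Of 14 tested genes for maturation and cross-linking, 1 was lower and 1 higher in Hand2 cKO and 2 were lower in Gli2/3 cKO. Lox, the lysyl oxidase that begins cross-linking, was at 2.79 and 1.68 CPM in the WT libraries, at 12.4, 8.53 and 10.9 CPM in the Hand2 cKO libraries, and at 0.804 CPM in the Gli2/3 cKO library. It thus lay above WT in each Hand2 cKO library and below WT in Gli2/3 cKO. The log2 fold changes were 2.23 ± 0.32 and -1.49 ± 0.46 (SE), and -3.72 ± 0.49 (SE) between the mutants, with an edgeR adjusted p of 0.162, 0.928 and 0.166. DESeq2 called it in Hand2 cKO and between the mutants. Adamts2, the procollagen N-proteinase, was lower in Hand2 cKO (-0.89 ± 0.28, SE) and Loxl1 in Gli2/3 cKO (-1.10 ± 0.35, SE).

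Among 13 tested fibril-associated genes, 4 were lower in Hand2 cKO and 3 in Gli2/3 cKO. Postn, periostin, which binds type I collagen, was at 41.1 and 34.1 CPM in the WT libraries, 13.8, 7.68 and 12.1 CPM in the Hand2 cKO libraries and 8.11 CPM in the Gli2/3 cKO library. Its log2 fold changes were -1.75 ± 0.27 and -2.21 ± 0.41 (SE), and DESeq2 called both. Lum (-0.51 ± 0.20 and -1.38 ± 0.29, SE), Dcn (-0.89 ± 0.32 and -1.16 ± 0.47, SE) and, in Hand2 cKO, Bgn (-0.42 ± 0.14, SE), which are small leucine-rich proteoglycans of fibrils, had the same sign. Of 19 tested receptors and turnover genes, 3 and 5 were lower, among them the receptor Ddr1 in Hand2 cKO (-0.59 ± 0.16, SE) and Mmp2, Mmp14 and Timp2 in Gli2/3 cKO (-0.54 ± 0.19, -0.60 ± 0.22 and -0.61 ± 0.20, SE). Also among them were Mmp9 in both mutants (-3.56 and -3.06) and Mmp8 in Hand2 cKO (-2.85), both near the floor. In the WT libraries Mmp9 was at 0.545 and 2.12 CPM and Mmp8 at 0.117 and 0.265 CPM. Of 19 basement membrane partners, 2 were lower in each mutant, Lamc3, a laminin chain (-2.92 ± 0.46 and -3.28 ± 0.76, SE), and Lamb2 (-0.49 ± 0.13 and -0.60 ± 0.19, SE). Of 7 tested cartilage regulators and matrix genes, 1 was higher in Hand2 cKO and 0 passed that level in Gli2/3 cKO. That gene was Sox9, the factor that switches on Col2a1, at 70.8 and 48.4 CPM in the WT libraries, 89.6, 85.4 and 96.7 CPM in the Hand2 cKO libraries and 86.3 CPM in the Gli2/3 cKO library, with a log2 fold change of 0.60 ± 0.20 (SE) in Hand2 cKO and an edgeR adjusted p of 0.723.

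Fewer cells of a type and less RNA per cell cannot be told apart in bulk tissue, so marker lists were summed as CPM. Neural crest mesenchyme markers were at 1629 to 2077 CPM, all 10 detected in each library, with WT 4 lowest and Hand2 cKO 2 highest. All 12 epithelial markers (360 to 428 CPM) and all 10 endothelial markers (264 to 323 CPM) were present in each library, with median log2 fold changes between -0.21 and -0.02 against WT. All 7 perivascular markers, of cells that express type I, III, IV and VI collagens, were at 507 and 497 CPM in the WT libraries, 375, 260 and 417 in Hand2 cKO and 358 in Gli2/3 cKO, with a median log2 fold change of -0.56 and -0.57. At an unadjusted p below 0.05 they went both ways in Hand2 cKO, with Rgs5 (-2.76) and Myh11 (-2.20) lower and Acta2 (1.02) higher, and in Gli2/3 cKO all 7 estimates were negative and 0 passed that level. All 9 macrophage markers were present, in sum at 17.4 CPM in the Gli2/3 cKO library against 25.9 to 31.5 CPM elsewhere. Their log2 fold change was negative for 8 of 9 in Gli2/3 cKO (median -0.71) and 4 of 9 in Hand2 cKO (median 0.0097). All 10 erythroid markers were present, in sum highest in WT 4 (12290 CPM) and Hand2 cKO 2 (8132 CPM) and at 2633 to 3878 CPM in the other libraries. Neuronal and glial markers (10 to 12 of 12 present, 47.7 to 65.5 CPM), muscle precursor markers (10 to 11 of 11, 36.5 to 47.6 CPM) and endoderm or notochord markers (6 to 7 of 8, 38.1 to 49.9 CPM) were low in each library. The muscle sum hides Pax3, at 5.44 and 6.94 CPM in WT, 4.26, 2.88 and 2.72 in Hand2 cKO and 2.72 in Gli2/3 cKO. Lbx1, near the floor, was at 0.604 and 0.707 CPM in WT and 0 in each mutant library. Estimates were negative for 7 of 11 muscle markers in Hand2 cKO and 5 of 11 in Gli2/3 cKO. The part of these differences in the collagen values was not tested.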

How the data were processed

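Polyadenylated RNA from E10.5 MNPs was sequenced in pairs. Per the study's methods, reads were aligned to mm10 and abundance was computed in Strand NGS. The deposited values are expected counts for each transcript, which the authors did not normalise, with a gene symbol for each transcript. The submitters' processing notes name DESeq2, which the authors used for their comparisons. For the aligner and the use of strand, the sources used here give nothing.

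Counts were summed by symbol and rounded. CPM were scaled by TMM factors. TPM were computed from each transcript's counts and its GENCODE M21 length (215 of 216 collagen transcripts matched). Genotypes were compared in edgeR 4.0.16 (R 4.3.3) by glmQLFit and glmQLFTest after filterByExpr (17477 genes), with all 6 libraries in 1 fit and Benjamini-Hochberg adjustment over all genes. Calls needed an adjusted p below 0.05 and a fold above 1.5. With 3 residual degrees of freedom the BCV was 0.289 and the prior degrees of freedom were 3.14. Intervals are 95%. The study's methods call the samples biologic, but whether a library is 1 embryo or a pool is not stated. The p-values measure the spread between these samples, part of which may be technical. Replicates differed by more than sampling noise (chi-square per degree of freedom 24.0 to 225).

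The alternatives were DESeq2 1.42.0, its size factors in edgeR, no filter, removal of the trend with transcript length (lowess), protein-coding transcripts only, fits of 2 groups, a robust prior and omission of each library. Omitting Hand2 cKO 2 together with the length trend was added after seeing the data. The members and the lists were chosen with earlier results of these data known. Named genes were those called in any comparison, up to 6 members with the smallest p in each, the highest gene of each class in WT and the chains of the ratios; for lists, those called and up to 4 with the smallest p. The fits were also run on simulated counts with known changes in Hand2 cKO only. Those counts had no trend with length, so they do not show how the fits handle Hand2 cKO 2. Promoters are from RefSeq, exons from GENCODE M21.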

Additional observations from a re-analysis of the deposited data

How the results depend on the processing

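No paired analysis was possible because the groups share only the replicate number 3. Of 1344 values of named genes under 13 alternatives, 1307 kept their direction. The number of collagen genes called in Hand2 cKO was 0 in the fit of all libraries (2 of all genes) and 1 with DESeq2 (182), with the length trend removed (54), without Hand2 cKO 2 (39), and with both changes (27). In Gli2/3 cKO it was 0 in that fit (2 of all genes), 3 with DESeq2 (127), 2 when only WT and Gli2/3 cKO were fitted (57) and 2 with both changes (41). Between the mutants it was 0 (6 of all genes) and 1 with DESeq2 (145). Leaving out 1 library at a time gave 0 to 1 called in Hand2 cKO. The cause was not tested.

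In Hand2 cKO, removing the length trend lowered the number of negative log2 fold changes from 30 to 19 and turned the median to 0.044. In Hand2 cKO the direction also turned with the length trend removed for Col16a1 (0.075), Col11a2 (0.044), Col5a1 (0.0060), Col4a1 (0.083), Col4a2 (0.20), Col4a4 (0.31) and Col4a5 (0.12), and with both changes for Col4a1 (0.0062), Col4a2 (0.056), Col4a4 (0.30) and Col4a5 (0.23). On protein-coding transcripts it turned for Col16a1 (0.46), Col11a1 (-0.015) and Col4a3 (-0.30) in Hand2 cKO and for Col16a1 in Gli2/3 cKO (0.31). Leaving out 1 library at a time, the range spanned 0 in Hand2 cKO for Col16a1 (-0.15 to 0.0043), Col18a1 (-0.020 to 0.16), Col1a2 (-0.14 to 0.35), Col11a1 (-0.067 to 0.38), Col4a1 (-0.30 to 0.0045), Col4a2 (-0.21 to 0.13), Col4a3 (-0.38 to 1.11), Col4a4 (-0.39 to 0.66) and Col4a5 (-0.26 to 0.23). It did so in Gli2/3 cKO for Col18a1 (-0.11 to 0.071), Col23a1 (-0.16 to 0.42), Col8a2 (-1.24 to 1.24), Col11a1 (-0.32 to 0.13), Col4a2 (-0.28 to 0.058), Col4a4 (-0.68 to 0.37) and Col4a5 (-0.35 to 0.035). With CPM in place of TPM, the change of a chain ratio relative to WT was 0.676 in Hand2 cKO and 0.385 in Gli2/3 cKO for Col6a3 to Col6a1 and 1.25 and 1.22 for Col2a1 to Col11a1. In Gli2/3 cKO it was 0.936 for Col5a1 to Col5a2, 1.04 for Col6a1 to Col6a2 and 1.12 for Col11a1 to Col11a2. Chains near 0 (Col4a3 to Col4a4, Col8a1 to Col8a2) were not recomputed. Depth limits what can be said of the 11 genes under 1 TPM, and 1 Gli2/3 cKO library gives no spread of its own.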
